A study of Mus musculus with 8 samples.

Results

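In KKAy mouse liver, 9 of the 10 genes described here were not well above array background by their brightest probe, while all 10 were measured on every C57BL/6J array. Of the 10, Fbxo44 was dim in C57BL/6J too, and Stx3 was measured in KKAy, on its own strand as well. The genes, out of 17049 measured, are Thumpd1, Zfp874a, Olig1, Lncbate1, Camk2b, Rab6b, Stx3, Fbxo44, Adgrf1 and Raet1e. They were chosen on these same arrays, as genes at least 8-fold dimmer in KKAy at both ages or below background there, and every probe carrying one of the 10 names was taken, 17 probes in all. In the array files Zfp874a is named C330011K17Rik, Adgrf1 is Gpr110 and Lncbate1 is 3010033K07Rik. The strain difference of these genes is therefore given as a description, with no test.

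Total RNA from liver was read on 8 one-colour arrays, 2 for each of 4 groups: KKAy mice at 4 weeks, C57BL/6J mice at 4 weeks, KKAy mice at 11 weeks and C57BL/6J mice at 11 weeks. KKAy mice carry the yellow agouti allele and become obese and diabetic, and their disease state is labelled diabetes. C57BL/6J is a standard inbred strain, labelled normal, so strain and disease state cannot be told apart here. Mice of all groups ate standard chow and were fasted overnight, and the sex of the mice and whether each array held 1 animal or a pool are not given in the sources used here, so p-values measure the spread between these samples only.

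The 10 genes have no common pathway. Thumpd1 encodes a partner of the enzyme that acetylates transfer RNA, Zfp874a a zinc finger protein and Olig1 a transcription factor of the oligodendrocyte lineage. Camk2b encodes a subunit of calmodulin-dependent kinase II, best known in neurons, where calcium and calmodulin switch the kinase on. Rab6b is a Golgi GTPase and Stx3 a syntaxin, that is, a membrane protein that drives fusion of vesicles with the apical cell surface. Fbxo44 gives a ubiquitin ligase its substrate-binding subunit, Adgrf1 is an adhesion G protein-coupled receptor, Raet1e encodes a surface ligand that the NKG2D receptor of natural killer cells binds, and Lncbate1 is a long noncoding RNA known from brown fat.

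Signals are given as a percentage of the 75th percentile of the same array, and a probe counts as measured on an array where the scanner software called it well above background. The 75th percentile was 476 to 1192 units, and the share of spots called well above background was 56.3% to 61.0% on KKAy arrays and 59.7% to 66.7% on C57BL/6J arrays. No spot was saturated, and the 10 hepatocyte markers tested were measured in the livers of both strains. Slide 1 held all 4-week arrays and slide 2 all 11-week arrays, and on both slides KKAy lay at positions 3 and 4 and C57BL/6J at positions 1 and 2. Age therefore cannot be told apart from slide, nor strain from position.

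For 9 of the 10 genes the label near silent fits the brightest probe. None of those 9 was well above background on any of the 4 KKAy arrays, and all 10 genes were well above it on all 4 C57BL/6J arrays (4 of 40 KKAy values, all of Stx3, against 40 of 40 C57BL/6J values). Of all genes, 202 (1.18%) were measured on every C57BL/6J array and on no KKAy array, the 9 among them, and 25 showed the reverse. Stx3 was measured on every KKAy array, and its probe is described with the syntaxins below. Sequence under the probes could not be examined, so whether a lower signal reflects less RNA was not tested. Where KKAy was not well above background, the fold is a lower bound: the mean of the C57BL/6J arrays over, on each KKAy array, the higher of the probe's own signal and the dimmest signal called well above background, which was 2.00% to 3.45% of the 75th percentile on those arrays.

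**Figure D1:**
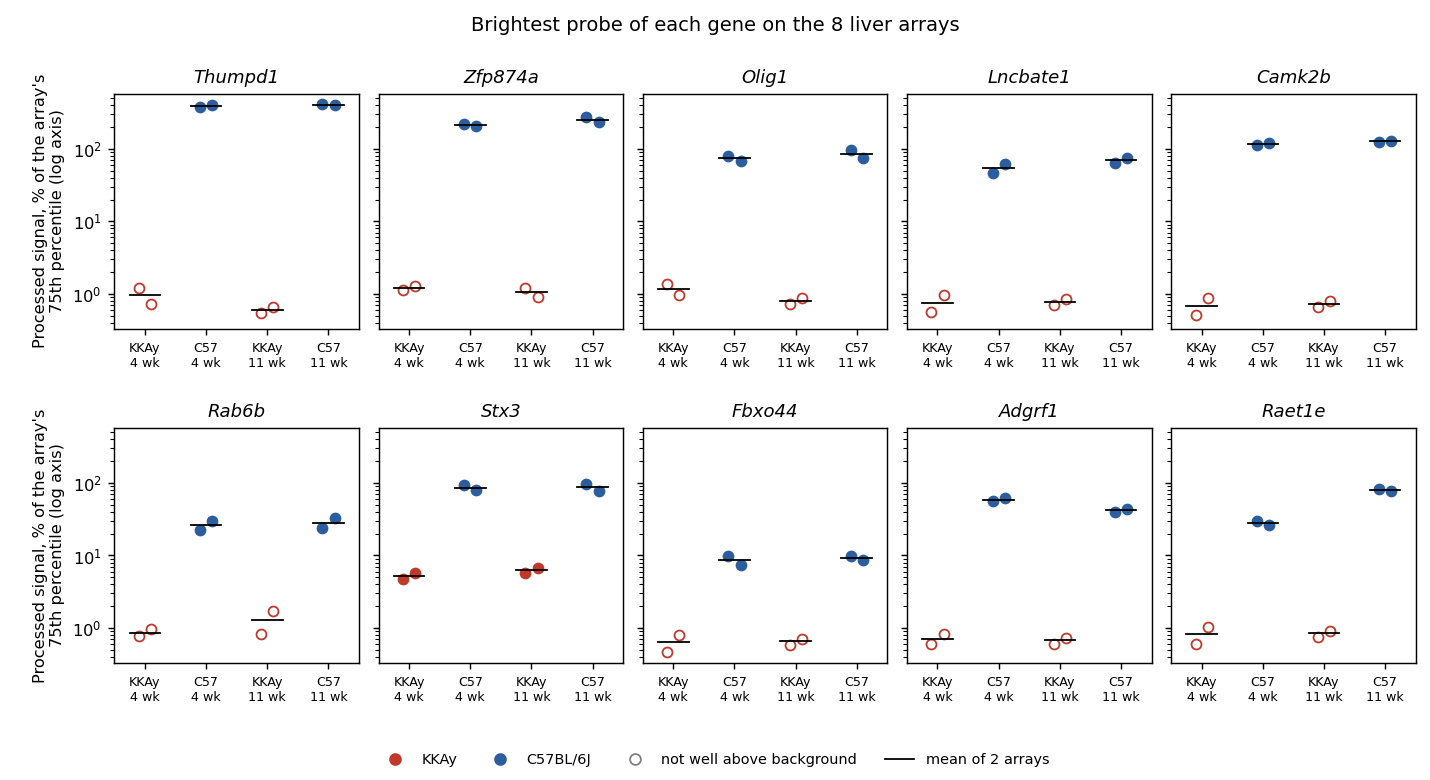
Processed signal of the brightest probe of each gene, as a percentage of the array's 75th percentile on a log axis, on each of the 8 arrays. Filled points were well above background and open points were not. The 4 KKAy values lie below the 4 C57BL/6J values in every panel, and among the KKAy values those of Stx3 alone are filled.

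Promoter sequence was at hand for 8 of the 10 genes (not for Olig1 and Lncbate1), as the 250 bases before the RefSeq start on GRCm38.p6. Where a gene has more than 1 start, the one farthest upstream was taken, and the others were not examined. These 8 windows have no common composition. Their GC content ran from 36.8% (Thumpd1) to 80.8% (Rab6b), around the median of 52% over 27025 promoters, and the ratio of observed to expected CpG from 0.12 (Thumpd1) to 1.31 (Camk2b), against a median of 0.379. The CCAAT motif, searched on both strands, was in 0 of 8 windows (34.5% of all promoters), the GGGCGG motif in 5 of 8 (33.0%) and the TATAAA motif in 1 of 8 (13.0%). Of the 8 windows, 4 are printed with matches in capitals: Thumpd1, the gene with the largest bound and the lowest GC content; Camk2b, the one densest in CpG; Stx3, the one with a TATAAA match; and Raet1e, the gene that changed with age. They lie at chr7:119723620-119723869 (minus strand), chr11:6065749-6065998 (minus strand), chr19:11819404-11819653 (minus strand) and chr10:22158319-22158568 (plus strand).
Thumpd1: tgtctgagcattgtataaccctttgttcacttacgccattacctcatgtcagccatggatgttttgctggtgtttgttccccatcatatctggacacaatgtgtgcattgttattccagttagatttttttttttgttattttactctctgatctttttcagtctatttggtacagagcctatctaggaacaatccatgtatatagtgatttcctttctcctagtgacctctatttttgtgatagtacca
Camk2b: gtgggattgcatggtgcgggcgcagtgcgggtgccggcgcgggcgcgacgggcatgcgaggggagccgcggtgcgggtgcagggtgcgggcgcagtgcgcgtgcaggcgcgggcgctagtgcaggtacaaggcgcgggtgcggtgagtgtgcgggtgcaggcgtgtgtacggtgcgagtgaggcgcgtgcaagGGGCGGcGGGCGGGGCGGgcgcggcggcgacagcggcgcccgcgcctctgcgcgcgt
Stx3: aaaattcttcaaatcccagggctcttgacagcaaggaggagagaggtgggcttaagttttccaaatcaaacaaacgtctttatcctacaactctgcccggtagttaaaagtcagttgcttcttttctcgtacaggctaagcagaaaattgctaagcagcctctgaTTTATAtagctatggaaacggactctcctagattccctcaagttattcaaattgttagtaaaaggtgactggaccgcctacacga
Raet1e: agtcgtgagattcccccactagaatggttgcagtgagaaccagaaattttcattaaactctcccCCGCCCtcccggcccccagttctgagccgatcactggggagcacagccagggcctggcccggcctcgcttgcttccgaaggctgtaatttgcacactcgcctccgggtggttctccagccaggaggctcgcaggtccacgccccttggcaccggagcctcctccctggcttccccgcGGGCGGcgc
Thumpd1 has no capitals because none of these 3 motifs is in its window, while Camk2b has 3 GGGCGG matches that run together close to the start, and Raet1e has 1 GGGCGG on each strand.

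Thumpd1 and Zfp874a had the largest bounds. The Thumpd1 probe for the RefSeq transcript (mm8 chromosome 7, 119506614 to 119506673) read 1.22% and 0.736% on the KKAy arrays, against 380% and 400% on the C57BL/6J arrays, at 4 weeks. At 11 weeks it read 0.547% and 0.654% in KKAy and 411% and 398% in C57BL/6J. It was thus at least 149-fold lower in KKAy at 4 weeks and at least 142-fold lower at 11 weeks. A second Thumpd1 probe, for a predicted transcript, was well above background on 1 C57BL/6J array at 4 weeks and on none of the other 7, so it gives no fold.

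Zfp874a (mm8 chromosome 13, 67939941 to 67940000) read 1.13% and 1.30% in KKAy and 223% and 206% in C57BL/6J at 4 weeks. It read 1.22% and 0.905% in KKAy and 272% and 233% in C57BL/6J at 11 weeks. The groups lay at least 81.6-fold and 88.2-fold apart, with KKAy the lower one at both ages. Olig1 (mm8 chromosome 16, 91160413 to 91160472) read 1.36% and 0.975% in KKAy and 80.5% and 67.4% in C57BL/6J at 4 weeks, and 0.719% and 0.877% in KKAy and 95.3% and 74.0% in C57BL/6J at 11 weeks, at least 28.1-fold and 29.5-fold lower in KKAy. Lncbate1 (mm8 chromosome 8, 111442443 to 111442502) was at least 20.4-fold and 24.2-fold lower, at 0.555% and 0.964% in KKAy and 46.8% and 61.3% in C57BL/6J at 4 weeks, and 0.705% and 0.862% in KKAy and 63.7% and 74.9% in C57BL/6J at 11 weeks. Each of these 3 genes, and each of Camk2b, Adgrf1 and Raet1e below, was read by 1 probe, so no second probe bears on its values.

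Among the signalling and trafficking genes, Camk2b (mm8 chromosome 11, 5869835 to 5869894) read 0.504% and 0.871% in KKAy and 111% and 121% in C57BL/6J at 4 weeks. At 11 weeks it read 0.654% and 0.792% in KKAy and 123% and 130% in C57BL/6J, and it was at least 44.3-fold lower in KKAy at both ages. Rab6b (mm8 chromosome 9, 103043359 to 103043418) read 0.778% and 0.957% in KKAy and 22.2% and 30.1% in C57BL/6J at 4 weeks, and 0.820% and 1.73% in KKAy and 23.9% and 32.6% in C57BL/6J at 11 weeks. Its bounds were 9.84-fold and 9.81-fold. The other Rab6b probe was also measured on all C57BL/6J arrays and on no KKAy array, with means of 0.667% in KKAy and 4.41% in C57BL/6J at 4 weeks and of 0.701% in KKAy and 3.85% in C57BL/6J at 11 weeks, but its bounds were 1.68-fold and 1.31-fold.

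Fbxo44 was below background in KKAy on both its probes, and its bounds fell short of 8-fold. At face value its log2 difference, KKAy minus C57BL/6J, was -3.81 at 4 weeks and -3.82 at 11 weeks on the brighter probe. Its brighter probe (mm8 chromosome 4, 147000400 to 147000459) read 0.463% and 0.803% in KKAy and 9.81% and 7.43% in C57BL/6J at 4 weeks, and 0.592% and 0.715% in KKAy and 9.69% and 8.73% in C57BL/6J at 11 weeks. The bounds were 3.25-fold and 3.23-fold, and 2.07-fold and 2.11-fold on its second probe, which was likewise measured in C57BL/6J only. Adgrf1 (mm8 chromosome 17, 42779467 to 42785851) was at least 22.3-fold lower in KKAy at 4 weeks, with 0.611% and 0.819% in KKAy and 55.8% and 61.2% in C57BL/6J. At 11 weeks it was at least 14.6-fold lower, with 0.608% and 0.739% in KKAy and 39.8% and 43.6% in C57BL/6J. Raet1e (mm8 chromosome 10, 21870709 to 21870768) read 0.593% and 1.04% in KKAy and 30.2% and 26.1% in C57BL/6J at 4 weeks, at least 10.7-fold lower. At 11 weeks the C57BL/6J arrays stood higher, at 82.9% and 76.9%, against 0.763% and 0.923% in KKAy, at least 28.0-fold lower in KKAy.

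Over all genes, 30 (0.176%) were at least 8-fold dimmer in KKAy at both ages, measured or bounded, 15 of them below background in KKAy at both ages, and 9 of the 10 genes are among these 30. In the other direction 27 genes (0.158%) were at least 8-fold brighter. Just inside the 8-fold threshold, by the smaller of both folds, were Ces4a (8.25), Clmp (8.17) and 6030422H21Rik (8.12), and just outside were Rab7b (7.86), H2-M10.2 (7.73) and 4930581F22Rik (7.64). The size of the folds depends on the background correction: with normexp and its offset, which draws dim signals together, the 10 genes lay 1.71-fold to 39.6-fold lower in KKAy at 4 weeks and 1.82-fold to 41.2-fold lower at 11 weeks. Thumpd1, Zfp874a and Camk2b alone were then 8-fold lower or more at both ages.

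**Figure D2:**
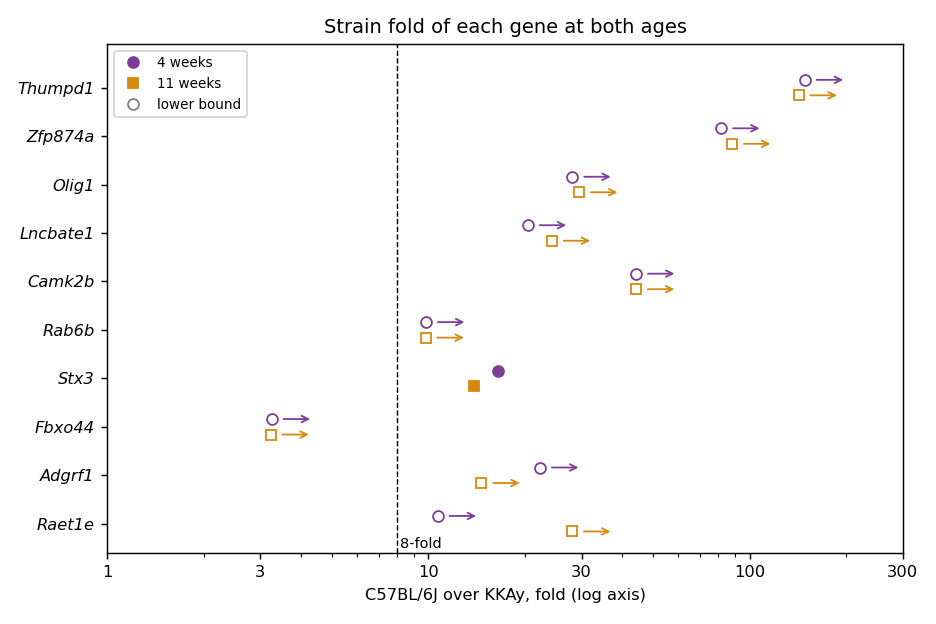
Fold of C57BL/6J over KKAy for the brightest probe of each gene at 4 weeks (circles) and 11 weeks (squares), on a log axis. Open symbols with arrows are lower bounds. Thumpd1 lies farthest to the right at both ages, and Fbxo44 is the one gene left of the dashed 8-fold line.

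For Stx3 the gene name and the probe part ways. The AK137098 cDNA probe (mm8 chromosome 19, 11843205 to 11843264) read 4.67% and 5.78% in KKAy and 92.3% and 79.0% in C57BL/6J at 4 weeks. It read 5.79% and 6.79% in KKAy and 96.8% and 78.3% in C57BL/6J at 11 weeks. All 8 values were measured, and KKAy was 16.4-fold and 13.9-fold lower. This probe is annotated on the plus strand, opposite to Stx3. Among the probes for curated RefSeq messenger RNAs, 99.6% of 19800 lie on the strand of their gene, against 222 on the opposite strand among 6368 other probes (3.49%). Of the 15 probes here whose gene has a listed strand, this was the 1 on the opposite strand.

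The 4 probes on Stx3's own strand did not share the pattern. The NM_152220 probe was measured on all 8 arrays, with 6.17% and 7.24% in KKAy and 11.8% and 10.2% in C57BL/6J at 4 weeks, and 6.23% and 6.12% in KKAy and 5.53% and 4.83% in C57BL/6J at 11 weeks. C57BL/6J was 1.64-fold and 0.837-fold KKAy. A probe for NM_011502 was measured on 7 of the 8 arrays, with C57BL/6J at 1.43-fold and 0.651-fold KKAy, and the other 2 probes were measured on no KKAy array and on 1 or 2 of the 4 C57BL/6J arrays. By the NM_152220 probe, RNA from Stx3's strand was thus measured on all 4 KKAy arrays, at levels within 2-fold of C57BL/6J, and the fold above 8 was that of the opposite-strand probe.

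**Figure D3:**
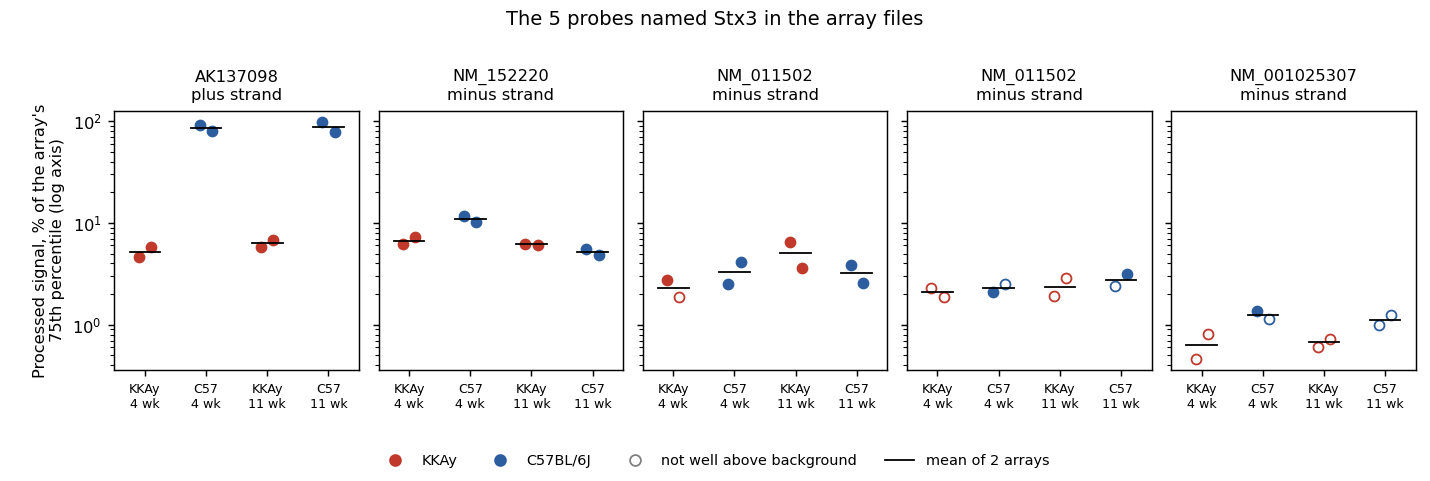
Signal of the 5 probes named Stx3, as a percentage of the array's 75th percentile on a log axis, by group and array. The plus-strand AK137098 probe lies at 4.67% to 6.79% in KKAy and at 78.3% to 96.8% in C57BL/6J, and no value of a minus-strand probe is above 11.8%.

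Which of the 10 genes changed with age is a separate question, since the choice rested on the strain difference. In C57BL/6J liver 1 of the 10, Raet1e, passed the limma test of 11 against 4 weeks, against 8.38% of all genes tested (1.89% called higher). It rose by a log2 difference of 1.51 (SE 0.27, 2.85-fold, adjusted p = 0.0270), with 82.9% and 76.9% at 11 weeks and 30.2% and 26.1% at 4 weeks. That call was lost with no filter on dim probes (adjusted p = 0.0721) and without any 1 of the 4 C57BL/6J arrays (log2 difference 1.40 to 1.61, adjusted p = 0.104 to 0.165). Over all its alternatives its adjusted p ran between 0.00345 and 0.165. Adgrf1 had the next largest difference, of -0.49 (SE 0.18, adjusted p = 0.199), with 39.8% and 43.6% at 11 weeks and 55.8% and 61.2% at 4 weeks. The other 8 lay between 0.03 (Stx3) and 0.37 (Lncbate1), with adjusted p between 0.583 and 0.960.

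In KKAy an age comparison could be made only for Stx3. The AK137098 probe differed by 0.27 between 11 and 4 weeks (SE 0.18, adjusted p = 0.371, where 18.6% of all genes were called), and its age changes in KKAy and in C57BL/6J differed by 0.24 (SE 0.26, adjusted p = 0.757, where 3.81% were called). On the NM_152220 probe, fitted with every probe in place of the brightest, Stx3 fell in C57BL/6J by a log2 difference of -1.09 (SE 0.14, adjusted p = 0.00915), while in KKAy the difference was -0.11 (adjusted p = 0.645). The difference between these age changes was 0.97 (SE 0.20, adjusted p = 0.0683). The fall in C57BL/6J lost its call without C57BL/6J replicate 1 of 4 weeks (adjusted p = 0.0695), without replicate 1 or 2 of 11 weeks (adjusted p = 0.0559 and 0.0840) and with normexp (a log2 difference of -0.21, adjusted p = 0.572).

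**Figure D4:**
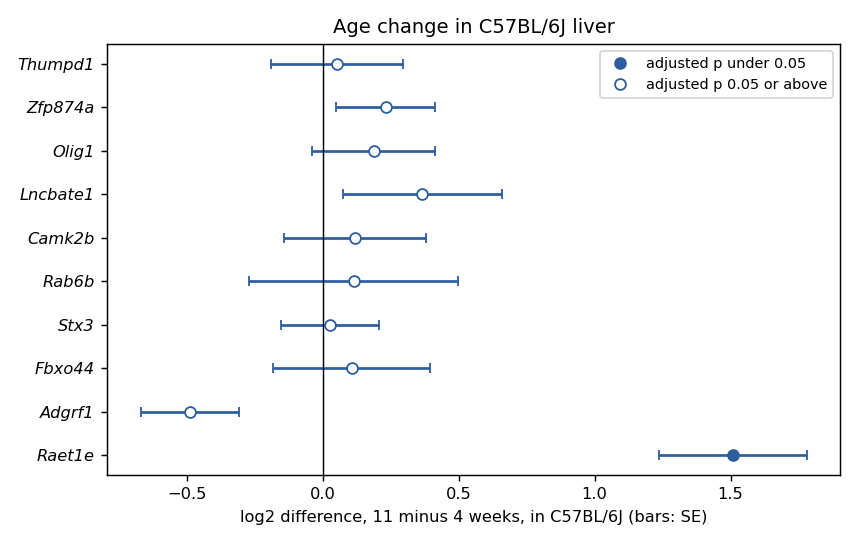
Log2 difference between 11 and 4 weeks in C57BL/6J liver for the brightest probe of each gene, with its SE as a bar. Raet1e, at 1.51, is the one filled point, past an adjusted p of 0.05, and Adgrf1, at -0.49, is the one gene below 0.

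The 10 genes lie on 10 different chromosomes. Within 500 kb of them 137 other genes were tested, and none met the 8-fold rule. At 4 weeks 16 of the 137 were lower and 12 higher in KKAy (20.4%, against 15.4% of all genes, 9% lower and 6.41% higher), and at 11 weeks 23 were lower and 11 higher (24.8%, against 21.5%, 11.5% lower and 9.95% higher). These shares lie near those of all genes. The median log2 difference of the neighbours was -0.05 at both ages, against 0.01 at 4 weeks and -0.000675 at 11 weeks over all genes.

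Of the nearest neighbours, Zfp874b, Nudcd3, Raet1a and AK078537 passed the test at both ages, Tnfrsf21 at 4 weeks and Adgrf5 at 11 weeks. The others passed it at neither age. Ykt6, a SNARE gene whose probe is 2.68 kb from that of Camk2b, differed by -0.06 at 4 weeks (adjusted p = 0.896) and 0.16 at 11 weeks (adjusted p = 0.627). Srprb, which encodes a subunit of the signal recognition particle receptor, 4.70 kb from Rab6b, differed by 0.10 and 0.22 (adjusted p = 0.621 and 0.159). Fbxo2 and Fbxo6, F-box genes on either side of Fbxo44 at 9.59 and 10.8 kb, differed by 0.15 and 0.44 at 4 weeks and by 0.24 and 0.08 at 11 weeks (adjusted p = 0.412 to 0.910). Mrpl16, a mitochondrial ribosomal protein gene read on the plus strand 1.42 kb from the AK137098 probe, differed by -0.32 and -0.34 (adjusted p = 0.465 and 0.351). Likewise Acsm1, Eri2, Zfp429, Paxbp1, Ifnar2, 4930444G20Rik, BX525770 and Zfhx3, each a nearest neighbour of 1 of the genes, passed the test at neither age (adjusted p = 0.0533 to 0.979).

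Neighbours that did differ went both ways. Zfp874b, 30.8 kb from Zfp874a, was lower in KKAy by -1.56 at 4 weeks (SE 0.15, adjusted p = 0.00208) and by -1.37 at 11 weeks (adjusted p = 0.00250), and it was measured on all 8 arrays. Raet1a, another ligand gene of NKG2D 190 kb from Raet1e, was higher in KKAy by 1.03 at 4 weeks (SE 0.12, adjusted p = 0.00349) and by 1.81 at 11 weeks (adjusted p = 0.000405), the opposite direction to Raet1e. Genes of this family are near-identical in sequence and strains are known to carry different members, so a probe may read more than 1 of them. All 17 alternatives kept these 4 calls. Nudcd3, 137 kb from Camk2b, was higher by 0.73 (adjusted p = 0.00615) and 0.45 (adjusted p = 0.0261). The call at 11 weeks was lost without any 1 of the 8 arrays (adjusted p = 0.0566 to 0.167). Tnfrsf21, a death receptor gene 231 kb from Adgrf1, was higher by 0.53 at 4 weeks (adjusted p = 0.0491), a call also lost without any 1 of the 8 arrays (adjusted p = 0.0564 to 0.231), and differed by 0.05 at 11 weeks (adjusted p = 0.857).

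Named after its values were seen, Crym, a thyroid hormone-binding crystallin gene 471 kb from Thumpd1, was higher in KKAy by 3.98 and 3.51 (adjusted p = 0.000478 and 0.000464). Cyp39a1, an oxysterol hydroxylase gene 431 kb from Adgrf1, differed by -0.28 at 4 weeks (adjusted p = 0.166) and was lower by -5.15 at 11 weeks (SE 0.11, adjusted p = 2.11e-05). OTTMUSG00000010965, 402 kb from Fbxo44, was not well above background in KKAy and was at least 5.60-fold and 3.77-fold lower there (adjusted p = 0.000875 and 0.000411).

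Around Stx3, 7 of 16 neighbours were lower at 4 weeks and 6 at 11 weeks, and none was higher. All of the 7 but 1 were Ms4a genes, a family of membrane proteins of leukocytes, with Ms4a4b lower by -2.75 (SE 0.20, adjusted p = 0.000750) and Ms4a4c by -1.92 (SE 0.22, adjusted p = 0.00343) at 4 weeks. The call of Ms4a4d at 4 weeks held in 7 of 17 alternatives. Those of Ms4a6b and Ms4a6d were each lost without C57BL/6J replicate 2 or KKAy replicate 1 of that age, and that of Ms4a7 with normexp. Macrophage and lymphocyte markers were lower in the same livers. Of 12 Kupffer cell markers 11 were lower at 4 weeks and 7 at 11 weeks, with a summed level, in multiples of the 75th percentile, of 76.3 to 84.7 in KKAy and 187 to 216 in C57BL/6J at 4 weeks and of 47.2 to 49.4 in KKAy and 79.0 to 84.1 in C57BL/6J at 11 weeks. Of 13 lymphocyte and natural killer cell markers 8 and 6 were lower. Their summed level was 1.53 to 1.62 in KKAy and 3.43 to 3.74 in C57BL/6J at 4 weeks. At 11 weeks it was 0.953 to 0.987 in KKAy and 1.40 to 1.41 in C57BL/6J. Ncr1 was the listed marker not tested, since it was not well above background on both arrays of any group. In whole liver, fewer cells of a type and less RNA per cell cannot be told apart, and the part of these cells in the Ms4a values was not tested. The seventh gene, read by the AK078537 probe that the file describes as a syntaxin 3 cDNA, on the plus strand 44.8 kb from the AK137098 probe, was not well above background in KKAy at either age. It was at least 1.28-fold lower at 4 weeks (adjusted p = 0.00809), a call lost with normexp (adjusted p = 0.864) and without C57BL/6J replicate 2 of that age (adjusted p = 0.0553). At 11 weeks it was measured on 1 of the 2 C57BL/6J arrays, and the call of that age (adjusted p = 0.0312) held in 8 of 16 alternatives, with a log2 difference of -0.04 under normexp and adjusted p of 0.0564 to 0.114 without any 1 of the 4 KKAy arrays or C57BL/6J replicate 2 of 11 weeks. Of the 6 genes lower at 11 weeks 4 were Ms4a genes, and the others were AK078537 and, named after its values were seen, Olfr1417. Olfr1417 was well above background on no KKAy array at 11 weeks, so its difference (-0.69, SE 0.13, adjusted p = 0.0147) takes those signals at face value. Its call held in 10 of 16 alternatives, with log2 differences of -0.74 to -0.11. The call was lost with normexp, with spike-in scaling and with no filter on dim probes. It was also lost without C57BL/6J replicate 1 or 2 or KKAy replicate 1 of 11 weeks (adjusted p = 0.0641 to 0.104). The call of Ms4a6d at 11 weeks (-0.51, adjusted p = 0.0411) was lost without any 1 of the 8 arrays (adjusted p = 0.0634 to 0.216).

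**Figure D5:**
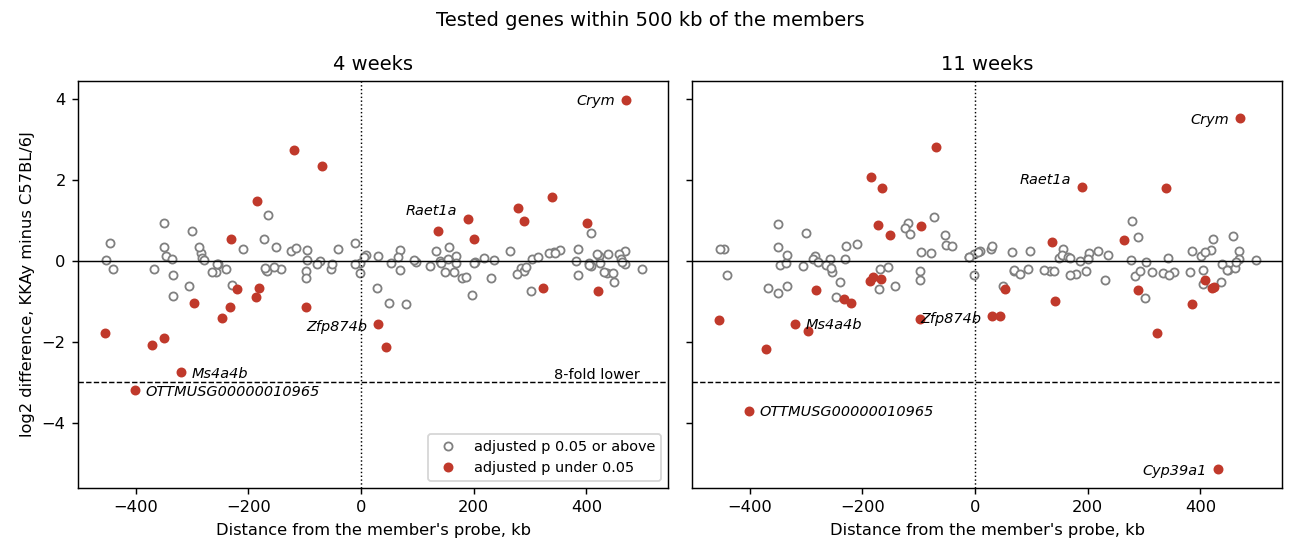
Log2 difference, KKAy minus C57BL/6J, of the 137 genes tested within 500 kb of the 10 genes, against distance in kb from the probe of the gene, at 4 weeks (left) and 11 weeks (right). Filled points passed an adjusted p of 0.05, and the dashed line marks 8-fold lower. Values below that line include a gene not well above background in KKAy, OTTMUSG00000010965, whose bound is smaller.

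Relatives and partners of the 10 genes were measured from 8 lists with 113 tested genes. At 4 weeks 14 of the 113 were called (12.4%, against 15.4% of all genes), at 11 weeks 19 (16.8%, against 21.5%) and with age in C57BL/6J 10 (8.85%, against 8.38%). These shares are close to or below those of all genes. The relatives Thumpd3, Camk2g, Adgrf5, Fbxo6 and Rab6a were measured on all 8 arrays, while Olig2, Raet1d and Stx1a were not among the genes tested. Thumpd3, the THUMP relative of Thumpd1, differed between KKAy and C57BL/6J by 0.17 and -0.23 at 4 and 11 weeks (adjusted p = 0.715 and 0.510). Camk2g, the subunit gene next of kin to Camk2b, differed by 0.19 and 0.09 (adjusted p = 0.655 and 0.802), and Rab6a by 0.23 and -0.05 (adjusted p = 0.689 and 0.927).

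Of 20 genes of THUMP proteins and transfer RNA modification, 1 was higher and 1 lower at 4 weeks and 1 lower at 11 weeks (medians 0.06 and -0.11). Trmt6, a transfer RNA methyltransferase subunit, was lower by -0.68 (SE 0.09, adjusted p = 0.00626) and -0.69 (adjusted p = 0.00479), and the call at 11 weeks was lost without C57BL/6J replicate 2 of that age (adjusted p = 0.0515) and both calls with spike-in scaling. Of 14 calmodulin and CaM kinase genes, 1 was lower at 4 weeks and 1 higher and 1 lower at 11 weeks (medians 0.02 and 0.14). Camk1d was lower by -1.19 at 4 weeks (SE 0.11, adjusted p = 0.00165), and with age in C57BL/6J Camk2n2, an inhibitor of CaM kinase II, rose by 1.28 (SE 0.10, adjusted p = 0.00159). Of 17 Rab6 and Golgi Rab genes, 1 was lower at each age (medians 0.09 and 0.03), and with age in C57BL/6J Kif20a, a mitotic kinesin that binds Rab6, fell by 2.47 (SE 0.16, adjusted p = 0.00103).

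Of 18 adhesion receptor genes, 1 was higher and 2 lower at 4 weeks, and 2 were higher and 4 lower at 11 weeks (medians 0.24 and 0.16). Adgre4, a receptor of macrophages, was lower by -1.31 at 4 weeks (SE 0.10, adjusted p = 0.000980), beside the lower Kupffer cell markers given above, and Adgrg2 by -1.96 at 11 weeks (SE 0.15, adjusted p = 0.000611). Adgrf5, relative and neighbour of Adgrf1, differed by -0.05 at 4 weeks (adjusted p = 0.913) and was lower by -0.99 at 11 weeks (adjusted p = 0.00850), a call lost without C57BL/6J replicate 1 or 2 of 11 weeks (adjusted p = 0.0549 and 0.0664). Of the 4 tested genes of the NKG2D system other than Raet1e, 1 was higher and 3 lower at 4 weeks and 1 higher and 1 lower at 11 weeks (medians -0.97 and -0.30). The lower ones at 4 weeks were Klrk1, which encodes NKG2D itself, and its signalling adaptors Hcst and Tyrobp, and the lower one at 11 weeks was Klrk1. Leaving out replicate 2 of C57BL/6J or replicate 1 of KKAy at 4 weeks ended the Klrk1 call of that age (adjusted p = 0.0585 and 0.0669), as did normexp (adjusted p = 0.289). At 11 weeks Klrk1 was well above background on no KKAy array and at least 1.65-fold lower there (adjusted p = 0.0367), a call that held in 5 of 16 alternatives and was lost with normexp (a log2 difference of -0.07) and without either array of KKAy or of C57BL/6J at 11 weeks or of KKAy at 4 weeks (adjusted p = 0.0503 to 0.187). The Hcst call of 4 weeks was lost with normexp (adjusted p = 0.133), with spike-in scaling (adjusted p = 0.143) and from the 4 arrays alone. Tyrobp was lower by -1.20 at 4 weeks (SE 0.09, adjusted p = 0.000805), beside the lower lymphocyte and natural killer cell markers. With age in C57BL/6J, 3 of these 4 genes, Tyrobp, Hcst and Klrk1, were called lower, Tyrobp by -1.24 (SE 0.09, adjusted p = 0.00150), while Raet1e was called higher. The age call of Hcst was lost with normexp (adjusted p = 0.113). That of Klrk1 held in 11 of 16 alternatives. It was lost with normexp (a log2 difference of -0.34), with no filter on dim probes and on leaving out some of the C57BL/6J arrays. In the same comparison 11 of 12 Kupffer cell markers (median log2 difference -1.11) and 7 of 13 lymphocyte and natural killer cell markers (median -1.25, Klrk1 among them) were lower, and their part in the values of these 3 genes was not tested.

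Of 23 syntaxin and SNARE genes, 1 was lower at 4 weeks and 1 higher and 3 lower at 11 weeks (medians -0.11 and 0.10). Of 9 F-box and SCF genes, none was called at 4 weeks and Fbxo17 was higher at 11 weeks, by 1.14 (SE 0.16, adjusted p = 0.00577), a call lost without C57BL/6J replicate 1 of 11 weeks (adjusted p = 0.0516) and with normexp (adjusted p = 0.183). Of 8 bHLH and Sox factors of the oligodendrocyte lineage, 2 were higher at each age (medians 0.21 and 0.14), among them Id4, by 0.72 at 11 weeks (SE 0.09, adjusted p = 0.00388). The part of neurons and glia in the Camk2b, Olig1 and Rab6b values of C57BL/6J was not tested. Of 12 markers of neurons and glia, 5 (Snap25, Mog, Nefl, S100b and Map2) were not well above background on both arrays of any group. The summed level of the other 7 was 1.49 to 1.54 in KKAy and 1.33 to 1.44 in C57BL/6J at 4 weeks. At 11 weeks it was 2.00 to 2.23 in KKAy and 1.09 to 1.12 in C57BL/6J. The sum was higher in KKAy at both ages, but the median log2 difference of the 7 was 0.13 at 4 weeks and -0.03 at 11 weeks. None of the 7 passed the test at 4 weeks, and at 11 weeks Syt1, a synaptic vesicle calcium sensor, alone did, higher in KKAy by 2.29 (SE 0.20, adjusted p = 0.000961).

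Outside the 10, the named genes with the most similar pattern over the 4 group means were LOC666185, Hnf4aos, Ear10, Imp4 and F830028O17Rik, at a Euclidean distance of 1.13 to 1.48 on the log2 scale from the median profile of the 10. None of the 5 was well above background on a KKAy array, so the distances take their KKAy signals at face value. Hnf4aos, an antisense transcript of the liver regulator Hnf4a, was at least 23.7-fold lower in KKAy at 4 weeks and 66.9-fold at 11 weeks, and LOC666185 at least 63.2-fold and 52.6-fold. Ear10, a ribonuclease gene of eosinophils with near-identical copies, was at least 19.1-fold and 7.16-fold lower. The bounds of Imp4 were 6.80-fold and 5.53-fold, and those of F830028O17Rik 8.93-fold and 5.42-fold. The 10 genes themselves lay 0.21 (Lncbate1) to 2.84 (Thumpd1) from that profile.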

How the data were processed

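Liver RNA of 8 samples was measured on one-colour arrays. The deposited scanner files hold spot intensity from Agilent Feature Extraction 9.5.1.1, per the submitters' processing notes. Per the file headers, the software subtracted background and replaced the dimmest signals by surrogates, as for 27 of the 40 KKAy values of the 10 genes. The deposited value table holds log2 values that equal the log2 processed signal minus 1 constant per array, within 0.001 for 99.5% of probes, with column medians of -3.96 to -3.67, no centring across arrays found, and the tool not given in the sources used here; it served as an alternative.

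Repeated spots were averaged, control and flagged spots left out (59 to 89 flagged per array), and each array's log2 processed signals were set against its own 75th percentile. A probe was kept if both arrays of any group called it well above background (25319) and the brightest probe stood for a gene (17049 genes). Names came from a RefSeq table of GRCm38.p6 by accession (24375 probes), symbol (6301) or older symbol (2426), else from the files (8072). Probe positions are on mm8, from the files. limma 3.58.1 in R 4.3.3 (lmFit, eBayes) was fitted to all 8 arrays with 4 residual and 1.93 prior degrees of freedom; p-values were Benjamini-Hochberg adjusted over all genes, at 0.05, with precision limited by the number of arrays. Tables and figures used Python 3.11.15, pandas 2.3.3, numpy 2.4.6 and matplotlib 3.10.9.

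The 10 genes, the lists and the tests were chosen with earlier results of these data known. Named besides the 10 were, per list and comparison, up to 2 genes with the smallest adjusted p and the nearest relative, the nearest tested neighbours, the 5 most similar named genes and 3 genes on each side of the threshold. After values were seen, list genes were given values where the call held without any 1 array or bore on a relative, and genes called only with age in KKAy were left unnamed. The hepatocyte list served only the statement that its markers were measured in both strains. Other marker lists (stellate, endothelial and cholangiocyte) bear on no result given here. The 6 tested adipocyte markers had a summed level of 68.7 to 88.1 in KKAy and 49.7 to 64.1 in C57BL/6J at 4 weeks. At 11 weeks it was 14.3 to 19.3 in KKAy and 69.3 to 79.8 in C57BL/6J. Of the 6, 1 was higher and 1 lower at 4 weeks, and 1 was higher and 2 lower at 11 weeks. The part of fat cells in the Lncbate1 values was not tested.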

Additional observations from a re-analysis of the deposited data

Results flagged for a closer look

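By the interaction term of the limma fit, which called 650 of 17048 genes (3.81%), age changes differed between the strains in 2 of the 113 list genes (1.77%, Adgrg2 and Tyrobp), in 2 of the 137 neighbours (1.46%, Cyp39a1 and Slc25a27), both shares below that of all genes, and in Syt1, 1 of 7 neuron and glia markers tested. Slc25a27 and Syt1 were named after their values were seen. Adgrg2, an adhesion receptor gene, differed by -2.26 (SE 0.21, adjusted p = 0.00693), with age changes of -1.16 in KKAy and 1.095 in C57BL/6J; the call was lost without C57BL/6J replicate 1 or 2 of 11 weeks (adjusted p = 0.0563 and 0.0589). Tyrobp differed by 0.91 (SE 0.13, adjusted p = 0.0220), with -0.32 in KKAy and -1.24 in C57BL/6J, and its call was lost without any 1 of the 8 arrays (adjusted p = 0.0707 to 0.139). Cyp39a1 differed by -4.87 (SE 0.15, adjusted p = 0.000572), with -5.33 in KKAy and -0.46 in C57BL/6J, a call kept in all 16 alternatives. Slc25a27, a mitochondrial carrier gene 323 kb from Adgrf1, differed by -1.13 (SE 0.20, adjusted p = 0.0439), with -2.06 in KKAy and -0.93 in C57BL/6J. It was well above background on 1 of the 2 KKAy arrays at 11 weeks, and its call held in 2 of 15 alternatives and was lost with normexp. Syt1 differed by 1.66 (SE 0.28, adjusted p = 0.0366), with 0.95 in KKAy and -0.71 in C57BL/6J. The calls of both were lost without any 1 of the 8 arrays (adjusted p = 0.0659 to 0.192 for Slc25a27 and 0.0579 to 0.154 for Syt1).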

How the results depend on the processing

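By the fitted difference, which takes KKAy signals below background at face value, all 10 were at least 8-fold dimmer in KKAy at both ages (9 when such signals give only a bound). The genes were chosen on this contrast. A count of 10 in the other alternatives is thus no sign of stability, and with normexp it was 3; with probes well above background on all 8 arrays only Stx3 remained, so that count was not run. For the strain difference at 4 weeks (2626 genes) the counts of called genes were 1505 with no filter on dim probes, 1404 from the 4 arrays alone and 1317 to 2588 on leaving out an array. For the strain difference at 11 weeks (3660 genes) they were 2356 with normexp, 2126 with no filter, 2120 from the 4 arrays alone and 1475 to 3069 on leaving out an array. For the age change in C57BL/6J (1428 genes) they were 667 with normexp, 700 with no filter and 461 to 1330 on leaving out an array. For the age change in KKAy (3176 genes) they were 1868 with normexp, 1463 with no filter, 742 from the 4 arrays alone, and 1337 to 2397 on leaving out an array. For the difference of the age changes (650 genes) they were 320 with normexp, 142 with no filter, 417 with spike-in scaling and 62 to 295 on leaving out an array. For the strain difference at 4 weeks the count with normexp was 1764. Normexp adds an offset, no filter adds tested genes and fits of 4 or 7 arrays have fewer samples. The cause of the other shifts was not tested. Spike-in scaling moved the median of all genes to 0.37 at 4 weeks and 0.14 at 11 weeks, and to -0.19 for age in KKAy, and the share of higher calls to 76.3% (main 41.6%), 61.0% (46.4%) and 19.3% (42.4%), and for the difference of the age changes to 35.7% (54.0%).

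Same-numbered arrays of different groups deviated together (Pearson r 0.530 to 0.676 across 17038 genes, which are not independent replicates), but the labels give them only a shared number. With the replicate block the 5 counts came to 7474, 9368, 5771, 9100 and 5288, and the age change of Adgrf1 in C57BL/6J passed the test (adjusted p = 0.0158). A slide block was not run, since each slide held 1 age. On leaving out an array, 3 uncalled age changes in C57BL/6J changed sign: Fbxo44 (-0.093 to 0.31, below 0 without replicate 2 of 4 weeks), Rab6b (-0.11 to 0.34, below 0 without replicate 1 of 4 weeks or 2 of 11 weeks) and Stx3 (-0.12 to 0.18, below 0 at -0.084 without replicate 2 of 4 weeks and at -0.12 without replicate 1 of 11 weeks). Of 40 list calls refitted, 11 held in every alternative and 14 without any 1 array. Signal over background limits the folds: below 2.00% to 3.45% of the 75th percentile KKAy values have no order.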
